A study of Mus musculus with 12 samples.

Results

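The genotype by quercetin interaction concerns the difference between a quercetin diet and a control diet in the mouse jejunum. For each transcript, it asks whether that difference was the same in mice labelled POR-null (POR, cytochrome P450 reductase) as in wild-type mice. It was computed per probe set from all 12 arrays of the series as the quercetin minus control difference in POR-null mice less the quercetin minus control difference in wild-type mice, on the log2 scale of the deposited values. A value above 0 therefore means that the diet difference was more positive, or less negative, in POR-null mice. All 22626 probe sets other than the Affymetrix controls were members, out of 22690 on the array, and 12393 named genes were each represented by 1 probe set.

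NADPH-cytochrome P450 reductase (POR) passes electrons from NADPH to the cytochromes P450 of the endoplasmic reticulum, so tissue that lacks it keeps P450 proteins with little or no activity. Enterocytes of the small intestine use these P450 enzymes, together with conjugating enzymes and efflux pumps, to handle dietary compounds. Quercetin is a flavonol of onions and other plant foods that enterocytes conjugate to glucuronides, sulphates and methylated forms. An interaction is a difference of differences, so it carries the error of 4 group means and is harder to measure than either diet difference alone.

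Mice were C57BL/6 males aged 6 to 8 weeks, labelled wild-type or POR-null, and the labels do not state the promoter or the tissues of the deletion. All were kept on a powdered soya-free RM3 diet for 14 days of adaptation, and for 24 h they then ate that diet alone or with quercetin at 6.2 g per kg of diet, about 7 mg per mouse. The jejunum was the middle of 3 equal lengths of small intestine, and its scraped epithelium gave the RNA. Each array held a pool of 3 mice, with 3 pools in each of the 4 groups (wild-type control, wild-type quercetin, POR-null control and POR-null quercetin). Nothing in the labels ties pools of different groups together, differences between single mice are not seen, and p-values measure the spread between pools. Array medians lay between 5.94 and 6.01 log2 units, arrays correlated at 0.989 to 0.995 across probe sets, and precision is limited by having 3 arrays per group. The enterocyte genes Fabp2, Apoa1, Apoa4, Fabp1, Vil1 and Lct lay at percentile 99.5 or above of all levels, while the liver gene Alb and the colon gene Car1 lay at percentiles 48.2 and 54.2. The gene targeted in POR-null mice was not analysed here, and no check of the genotypes was made on it. In scraped tissue, fewer cells of a type and less RNA per cell cannot be told apart.

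No probe set passed the test for an interaction. By limma's moderated test, 0 of 22626 probe sets (0%) had an adjusted p under 0.05, and the smallest adjusted p was 0.651. At an unadjusted p under 0.05 there were 1141 probe sets, 5.04% of those tested, of which 486 lay above 0 (2.15%) and 655 below 0 (2.89%). That split turned with the scaling of the arrays, to 639 above and 481 below when each array was centred on its median, and to 576 above and 587 below after quantile normalisation. The median standard error of an interaction was 0.138 log2 units. At that standard error the first call needed an interaction of 1.03, whereas an interaction of 0.294 sufficed for an unadjusted p under 0.05. The values below are therefore descriptions of these 12 pools, and an adjusted p above the threshold does not show that the genotypes responded alike.

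The diet differences of the genotypes were only weakly related across genes. Across the 12393 genes, the quercetin minus control difference in wild-type mice and that in POR-null mice, which share no array, correlated with Pearson's r of 0.094 and Spearman's rho of 0.103, over genes that are not independent of each other. Diet alone had 1972 probe sets at an unadjusted p under 0.05 in wild-type mice (8.72%) and 910 in POR-null mice (4.02%), with 3 (0.0133%) and 0 (0%) probe sets past the adjusted threshold. The median absolute diet difference over genes was 0.080 in wild-type mice and 0.067 in POR-null mice. Among the 1141 probe sets with an unadjusted interaction p under 0.05, the diet difference had opposite signs in the genotypes for 1037 (90.9%, against 45.4% of all probe sets) and was the larger of the pair in wild-type mice for 777 (68.1%, against 56.3%). The first of these shares follows in part from choosing on the interaction. The second may as well, because diet differences were larger in wild-type mice over all genes. Both are given as descriptions.

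**Figure D1:**
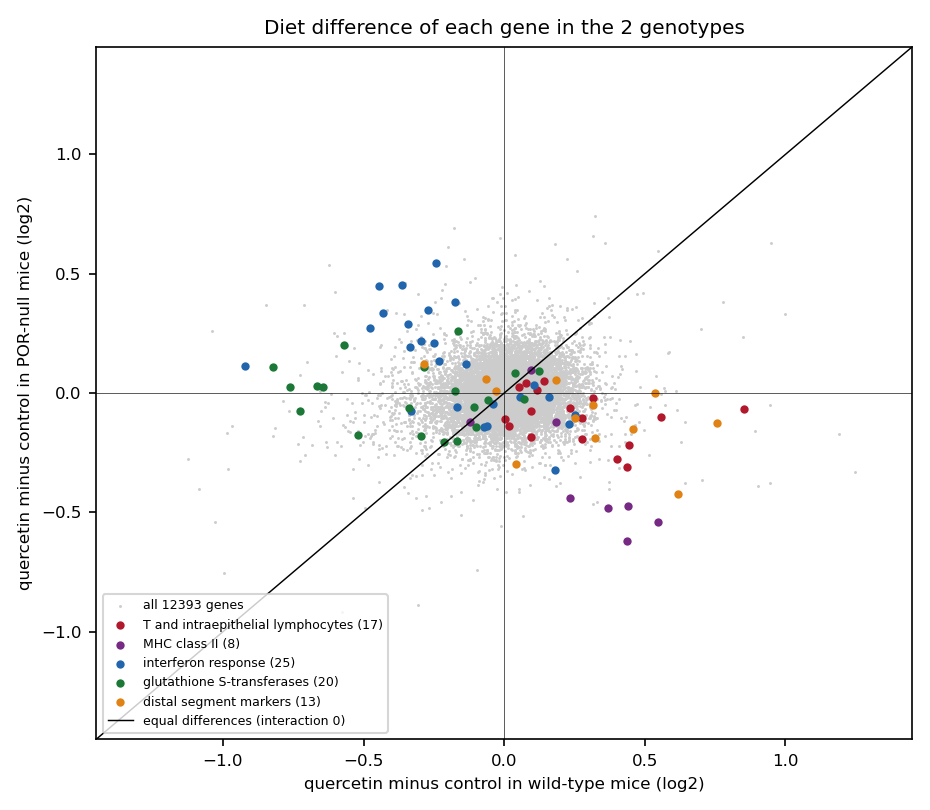
Each point is 1 gene, with the quercetin minus control log2 difference in wild-type mice on the x axis and that in POR-null mice on the y axis, and the diagonal marks an interaction of 0. Interferon response genes (blue) and glutathione S-transferases (green) lie mostly left of the diagonal, and lymphocyte (red), MHC class II (purple) and distal segment genes (orange) mostly right of it; Fabp6, Saa1, Reg1 and Defa31 lie outside the axes.

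The 15 genes of smallest p with an interaction below 0 ranged from -0.45 to -2.12 log2 units in size, with limma adjusted p of 0.651 to 0.902. All 15 were chosen on the interaction, and in each the diet difference was above 0 in wild-type mice and below 0 in POR-null mice. Opposite signs were found in 45.4% of all probe sets. The 15 held genes of enterocyte uptake and identity, genes of cytotoxic lymphocytes and several dim transcripts.

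Osr2, a zinc finger transcription factor listed here with the markers of the distal small intestine, had the smallest p of all. Its log2 level was 7.04, 7.13 and 7.09 in the wild-type control pools and 7.77, 7.83 and 7.93 in the wild-type quercetin pools, against 7.67, 7.86 and 7.46 in the POR-null control pools and 7.73, 7.49 and 7.39 in the POR-null quercetin pools. The 3 wild-type control pools lay below all 9 others, and the POR-null diet groups overlapped. The diet difference was 0.76 ± 0.11 (SE, n = 3 pools per group) in wild-type mice and -0.13 ± 0.11 in POR-null mice, an interaction of -0.88 ± 0.15 (limma adjusted p = 0.651). Cubn, which encodes cubilin, the receptor for vitamin B12 bound to intrinsic factor, was at 10.43, 10.64 and 10.98 in wild-type control pools, 11.32, 11.33 and 11.30 in wild-type pools given quercetin, 10.98, 11.04 and 11.61 in POR-null control pools and 10.68, 10.63 and 10.81 in POR-null quercetin pools. On this probe set neither genotype's diet groups overlapped, and quercetin pools were the higher ones in wild-type mice and the lower ones in POR-null mice. The interaction was -1.14 ± 0.21 (adjusted p = 0.651), and a second probe set of the gene gave -1.04. On that second probe set the wild-type diets were again apart, but the POR-null diets overlapped. Its POR-null pools were at 9.94, 10.15 and 10.89 on the control diet and 9.77, 9.73 and 10.21 on quercetin.

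Sdc4, the cell surface proteoglycan syndecan 4, had the largest interaction of the 15 at -2.12 ± 0.45 (adjusted p = 0.755). It was at 8.21, 6.97 and 6.45 in wild-type control pools, 8.66, 8.33 and 8.05 in wild-type pools given quercetin, 7.98, 7.69 and 7.94 in POR-null control pools and 7.09, 7.08 and 6.49 in POR-null quercetin pools. The wild-type groups overlapped through control pool 1, while all POR-null quercetin pools lay below the POR-null control pools. Its other probe set gave an interaction of 0.24, so the probe sets of this gene disagree. Without wild-type control pool 1 the interaction was -2.62, with a limma adjusted p of 0.00402. Edn2, the vasoactive peptide endothelin 2, had a diet difference of 0.64 ± 0.17 in wild-type mice and -0.38 ± 0.17 in POR-null mice, with no overlap between diets in either genotype (interaction -1.02 ± 0.24). Dab1, an adaptor of reelin signalling, followed the same pattern with an interaction of -0.91 ± 0.21, and its 4 other probe sets ranged from -0.42 to 0.02. Abca3, a lipid transporter of the ABC family, had an interaction of -0.71 ± 0.18, and its other probe sets gave -0.30 and -0.09.

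Rgs2, a regulator of G protein signalling, differed mainly in POR-null mice, where quercetin pools (6.23, 6.22 and 6.36) lay below control pools (6.54, 6.80 and 6.64) and the diet difference was -0.39 ± 0.09. In wild-type mice the quercetin pools (6.61, 6.77 and 6.63) lay only just above the control pools (6.34, 6.56 and 6.56), a difference of 0.18 ± 0.09. Jdp2, a repressor of the AP-1 family, had an interaction of -0.57 ± 0.14, and its wild-type control pools (4.95 to 5.04) lay below the 9 others (5.23 to 5.59). Smr2, Mageb3, Rp2 and Ppcdc had interactions of -0.45, -0.47, -0.58 and -0.52 at mean levels of 3.72 to 4.80, below the array medians, and the files give no detection calls. The other probe sets of Smr2 lay at 0.02 and 0.04, and those of Ppcdc and Rgs2 at -0.04 and -0.06. Those of Rp2 lay at -0.23 and -0.02, and that of Jdp2 at -0.19.

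The 15 genes of smallest p with an interaction above 0 ranged from 0.41 to 1.30, with limma adjusted p of 0.651 to 0.935. In 14 of the 15, also chosen on the interaction, the diet difference was below 0 in wild-type mice and above 0 in POR-null mice. The exception was Ckb, the brain-type creatine kinase that buffers ATP, whose diet difference was -0.98 ± 0.12 in wild-type mice and -0.32 ± 0.12 in POR-null mice. Its level was 9.55, 10.12 and 9.62 in wild-type control pools and 8.92, 8.73 and 8.69 in wild-type quercetin pools, against 9.20, 9.19 and 9.16 in POR-null control pools and 8.76, 8.93 and 8.91 in POR-null quercetin pools. Quercetin pools of Ckb were thus the lower ones in both genotypes without overlap, and the interaction of 0.67 ± 0.17 was one of size.

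Ada, adenosine deaminase, which turns adenosine into inosine and is abundant in proximal small intestine, had the largest interaction above 0 among them, 1.30 ± 0.26 (95% interval 0.75 to 1.85, adjusted p = 0.718). Its pools were at 12.10, 12.98 and 12.72 in wild-type control mice, 11.66, 11.40 and 11.62 in wild-type quercetin mice, 11.70, 12.11 and 12.24 in POR-null control mice and 12.13, 12.40 and 12.30 in POR-null quercetin mice. The wild-type quercetin pools lay below the other 9, and the POR-null diet groups overlapped. The ratio of quercetin to control was 2.46 times as large in POR-null mice as in wild-type mice. Without wild-type control pool 1 the interaction was 1.55, with a limma adjusted p of 0.0212, which passed the threshold. Adk, the kinase that returns adenosine to AMP, had an interaction of -0.55 ± 0.15 on its main probe set, with its 3 others between -0.21 and 0.01.

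Socs3, the feedback inhibitor of cytokine signalling through STAT3, was at 7.01, 7.19 and 7.02 in wild-type control pools, 6.85, 6.50 and 6.61 in wild-type pools given quercetin, 6.69, 6.98 and 6.62 in POR-null control pools and 7.40, 7.34 and 7.05 in POR-null quercetin pools. Diets did not overlap in either genotype and were ordered oppositely, with an interaction of 0.92 ± 0.17 (adjusted p = 0.651). Its other 2 probe sets lay on the same side, at 0.18 and 0.52. Clic4, a chloride channel family protein, had an interaction of 1.13 ± 0.22 (adjusted p = 0.651), also without overlap, and its other 2 probe sets gave 0.45 and 0.55. Cd36, a receptor for long-chain fatty acids, had a diet difference of -0.85 ± 0.21 in wild-type mice and 0.27 ± 0.21 in POR-null mice (interaction 1.12 ± 0.30), with 2 other probe sets at 0.09 and 0.82.

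Cyp1a1, a P450 induced by ligands of the aryl hydrocarbon receptor, was at 6.46, 7.16 and 6.96 in control pools of wild-type mice and 6.14, 6.02 and 6.24 in their quercetin pools. In POR-null mice it was at 6.20, 6.38 and 6.01 on the control diet and at 6.11, 6.24 and 6.47 on quercetin. Wild-type diet groups did not overlap, POR-null groups did, and the interaction was 0.80 ± 0.22 (adjusted p = 0.935). Of the 9 measured genes of the receptor and its targets, Cyp1a1 alone had an unadjusted p under 0.05 (against 5.22% of genes). Nqo1 was at 0.01 ± 0.18, Cyp1b1 at 0.03 and Tiparp at -0.08. Azin1, the antizyme inhibitor of polyamine synthesis, had an interaction of 0.58 ± 0.14 with a second probe set at 0.55. Blnk, an adaptor of B cell receptor signalling, was at 0.56 ± 0.14 without overlap in either genotype, and the pancreatic lipase cofactor Clps at 0.58 ± 0.15. Nsmf, Kcnk1 and Acvr1 had interactions of 0.75, 0.45 and 0.41 on the probe set of smallest p and other probe sets at -0.04 to 0.02, at -0.10 and at -0.05 to 0.09, so for these genes the value rests on 1 probe set.

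**Figure D2:**
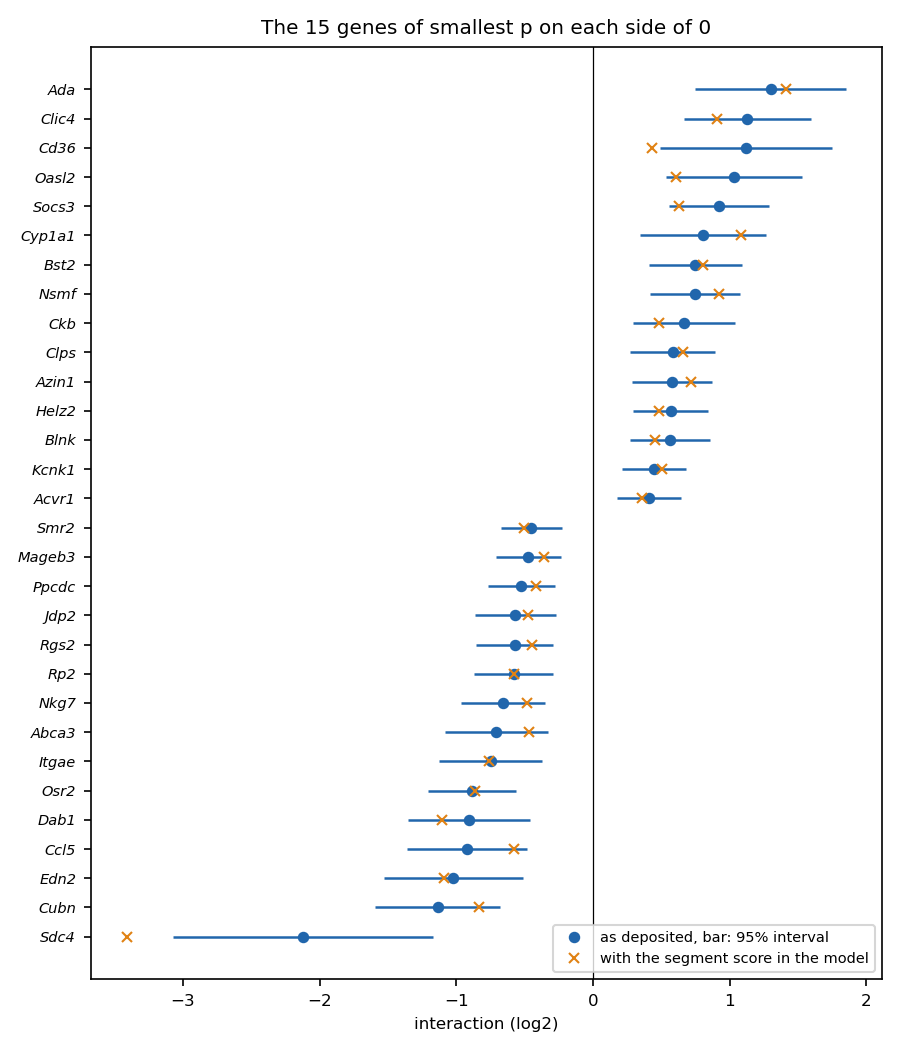
Interaction of the 15 genes of smallest p on each side of 0, in log2 units, with 95% intervals of the limma fit (circles and bars) and the value when the segment score of each pool was a term of the model (crosses). Intervals of these genes exclude 0 because they were chosen by p, none passed the adjusted threshold, and the segment score moved Sdc4 from -2.12 to -3.41 and Cd36 from 1.12 to 0.43.

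**Figure D3:**
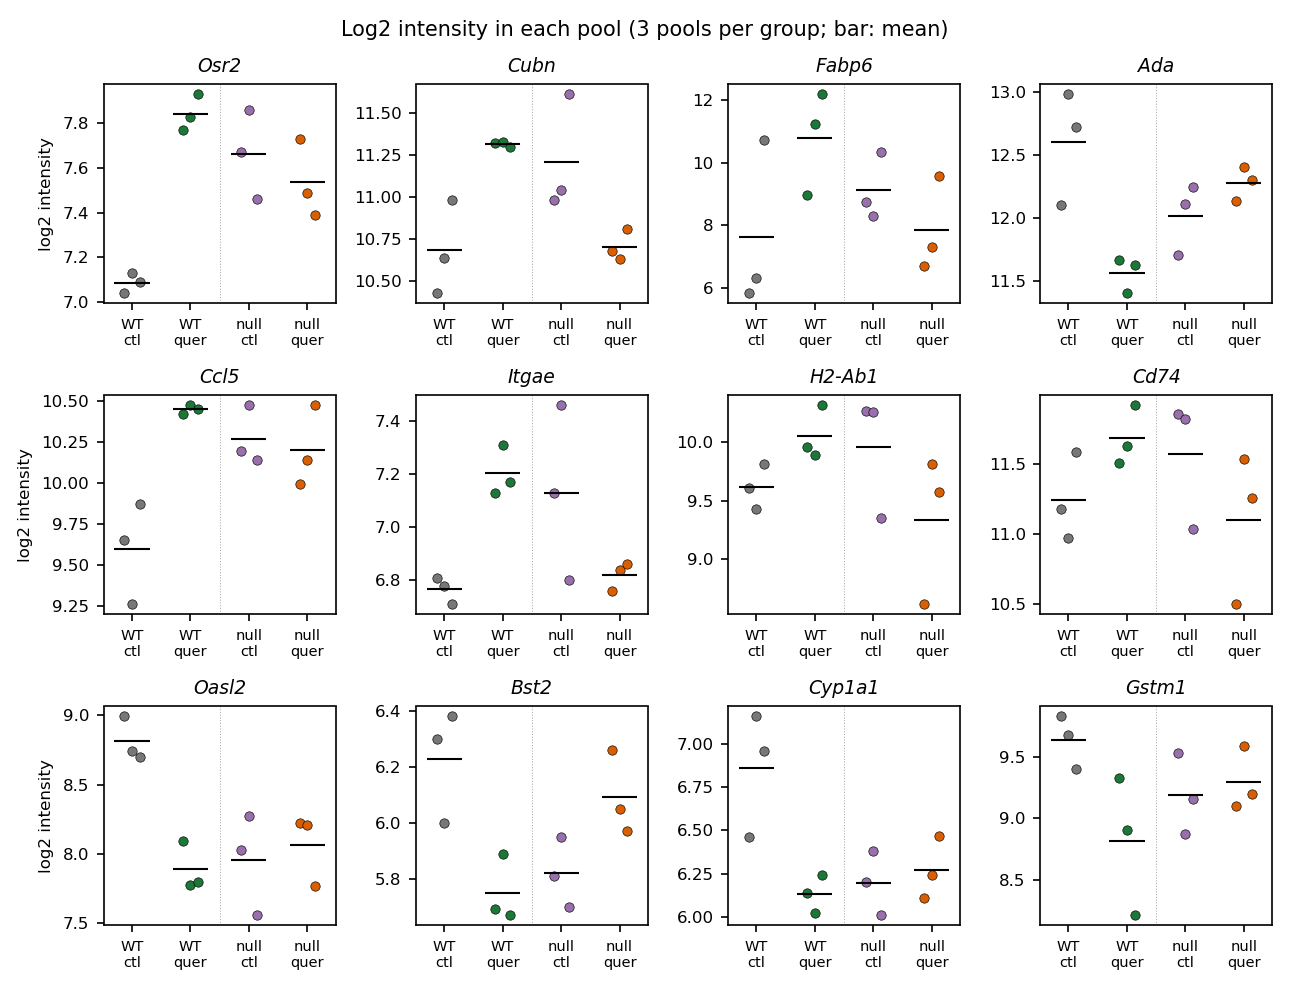
Log2 intensity of 12 genes in each pool, by group (WT, wild-type; null, POR-null; ctl, control diet; quer, quercetin diet), with the group mean as a bar. Osr2, Ccl5 and Oasl2 show wild-type control pools apart from the 9 others, Ada shows wild-type quercetin pools apart, and Fabp6 shows a spread of several log2 units within each group.

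Which group stood apart was counted over all genes. The 3 wild-type control pools lay wholly above or wholly below the other 9 pools for 207 genes (1.67%), the wild-type quercetin pools for 116 (0.936%), the POR-null control pools for 88 (0.71%) and the POR-null quercetin pools for 84 (0.678%). Among the 647 genes with an unadjusted interaction p under 0.05 (5.22% of genes) the counts were 77, 38, 22 and 19, a description of genes chosen on the same arrays. In the 30 leading genes the wild-type control pools stood apart for 7, Osr2, Ccl5, Smr2, Jdp2, Oasl2, Kcnk1 and Ckb. The POR-null quercetin pools stood apart for 0 of the 30. The diet groups of both genotypes were free of overlap and ordered oppositely for 60 genes (0.484%), with quercetin pools higher in wild-type and lower in POR-null mice for 42 (0.339%) and the reverse for 18 (0.145%). Among the 30 leading genes, each on its probe set of smallest p, this held for 14. That count follows in part from choosing these genes on the interaction.

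Genes were then grouped into 47 lists of pathways, gut segments and cell types. Over all 12393 genes the median interaction was -0.02, 278 genes (2.24%) lay above 0 at an unadjusted p under 0.05 and 369 (2.98%) below. Lists at the ends of the order were MHC class II (median -0.76), distal segment markers (-0.37) and T and intraepithelial lymphocytes (-0.30) on the side below 0, and interferon response genes (0.37), glutathione S-transferases (0.23) and P450 genes of the Cyp2 and Cyp3 families (0.22) on the side above 0. No list was given a test, and no member of any list had an adjusted p under 0.05.

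**Figure D4:**
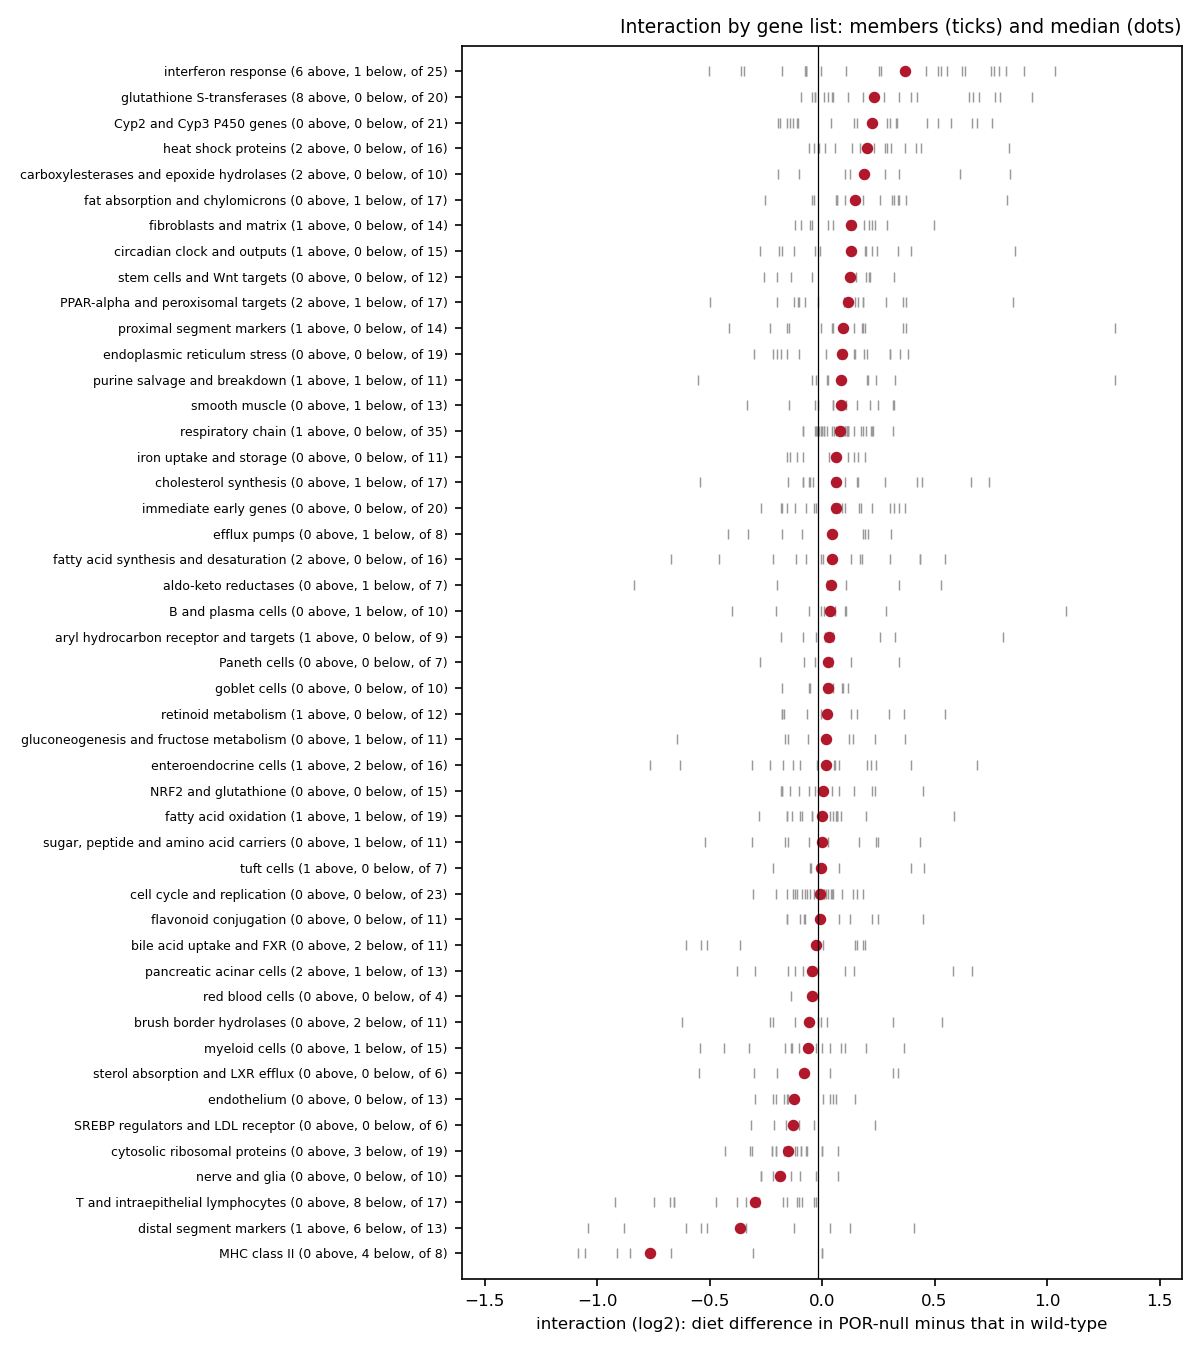
Interaction of the measured members of each of 47 gene lists in log2 units (ticks, 1 per gene) with the list median (dots) and, in brackets, how many members had an unadjusted p under 0.05 above and below 0; the vertical line is the median of all genes, -0.02. MHC class II, distal segment and lymphocyte lists have medians from -0.76 to -0.30 and the interferon list 0.37, while most lists lie near the line; Fabp6 at -4.44 is outside the axis.

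Genes of T and intraepithelial lymphocytes, the cytotoxic cells that sit between enterocytes, had interactions below 0 in all 17 measured members. Of these, 8 had an unadjusted p under 0.05 (against 2.98% of genes on that side), and the median diet difference was 0.23 in wild-type and -0.10 in POR-null mice. Ccl5, a chemokine of cytotoxic T cells, was at 9.65, 9.26 and 9.87 in wild-type control pools, 10.42, 10.47 and 10.45 in wild-type pools given quercetin, 10.19, 10.47 and 10.14 in POR-null control pools and 9.99, 10.14 and 10.47 in POR-null quercetin pools. The wild-type control pools were again below the other 9, and the interaction was -0.92 ± 0.21 (limma adjusted p = 0.755). Itgae, the integrin that binds these cells to E-cadherin, was at 6.81, 6.78 and 6.71 and at 7.13, 7.31 and 7.17 in wild-type control and quercetin pools, and at 7.13, 7.46 and 6.80 and at 6.76, 6.84 and 6.86 in the POR-null ones. Its wild-type pools did not overlap, its POR-null pools did through control pool 3, and the interaction was -0.75 ± 0.18.

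Nkg7, a cytotoxic granule protein, had an interaction of -0.66 ± 0.14 and the protease Gzma -0.66 ± 0.17. Members outside the naming rule, named here after their values were seen, show that the list was uneven: Cd3g of the T cell receptor complex was at -0.68 ± 0.17 and Gzmb at -0.47 ± 0.17, but the complex's Cd3e was at -0.03 ± 0.12, Cd247 at -0.09 and Cd8b1 at -0.04. The mean level of the list, each gene centred over the 12 arrays, was -0.15, -0.21 and -0.15 in wild-type control pools, 0.05, 0.11 and 0.12 in wild-type pools given quercetin, 0.05, 0.18 and 0.04 in POR-null control pools and -0.09, -0.01 and 0.07 in POR-null quercetin pools. Wild-type control pools were the lowest, and in POR-null mice the diets overlapped. Quercetin pools lay wholly above control pools in wild-type mice for 7 of the 17 members, against 6.91% of all genes, and the diets were apart in POR-null mice for 0, against 4.2% (quercetin higher) and 4.83% (quercetin lower) of all genes.

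Genes of MHC class II presentation, by which antigen-presenting cells and some enterocytes show peptides to CD4+ T cells, had the lowest median of any list, -0.76 over 8 members, with 4 at an unadjusted p under 0.05 (against 2.98% of genes below 0). The alpha and beta chain genes H2-Aa, H2-Ab1 and H2-Eb1 and the invariant chain gene Cd74 had interactions of -1.09 ± 0.48, -1.06 ± 0.38, -0.85 ± 0.33 and -0.91 ± 0.35 (limma adjusted p = 0.956 for each). H2-Ab1 was at 9.61, 9.43 and 9.81 in wild-type control pools, 9.96, 9.89 and 10.31 in wild-type pools given quercetin, 10.26, 10.25 and 9.35 in POR-null control pools and 8.62, 9.81 and 9.57 in POR-null quercetin pools. Its wild-type groups did not overlap, while in POR-null mice control pool 3 and quercetin pool 1 stood below the other pools of their groups. Cd74, H2-Eb1 and H2-Aa overlapped between diets in both genotypes. Quercetin pools lay wholly above control pools in wild-type mice for 1 of the 8 members, H2-Ab1, against 6.91% of all genes. H2-Aa was at 11.16, 11.05 and 11.66 in control pools and 11.63, 11.70 and 12.18 in quercetin pools of wild-type mice, and at 12.23, 11.93 and 10.78 and then 10.38, 11.65 and 11.29 in those of POR-null mice. The list mean, whose wild-type diets overlapped through control pool 3, was at -0.16, -0.23 and 0.10, then 0.05, 0.09 and 0.38 in wild-type mice, and at 0.37, 0.26 and -0.23, then -0.59, 0.08 and -0.11 in POR-null mice. Without POR-null quercetin pool 1 the list median was -0.53 and without POR-null control pool 3 it was -1.02. With any 1 pool left out, 1 to 6 members lay below 0 at an unadjusted p under 0.05, against 2.22% to 3.89% of all genes. No member had such a p with the segment score, described below, in the model, nor with a trended and robust variance. H2-DMa, which loads peptides, was at -0.67 ± 0.32, the class II transactivator Ciita at -0.31 ± 0.18, and both H2-DMb2 and the cathepsin Ctss at 0.00.

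Markers of other cells that carry class II were given beside this list. The 15 measured myeloid genes had a median interaction of -0.06 with 1 below 0 at an unadjusted p under 0.05 (against 2.98% of genes). The 10 genes of B and plasma cells had a median of 0.03, also with 1 below 0. Pool means of the myeloid list ran from -0.13 to 0.15 over the 12 pools and those of B and plasma cells from -0.33 to 0.32, and the part of these cells in the class II values was not tested.

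Class II promoters are known to carry a Y box that binds the factor NF-Y, and the promoters of the pair of listed genes at an unadjusted p under 0.05 for which RefSeq gave a window are shown because both hold it. The windows span 250 bases before to 50 bases after the start site on the gene's strand (GRCm38.p6), at chr17:34287774-34288073, minus strand, for H2-Aa and chr17:34305617-34305916, plus strand, for H2-Eb1. Capitals mark the letters CTGATTGG, searched on both strands, which begin 51 bases before the start site in H2-Aa and 62 bases before it in H2-Eb1.
H2-Aa promoter: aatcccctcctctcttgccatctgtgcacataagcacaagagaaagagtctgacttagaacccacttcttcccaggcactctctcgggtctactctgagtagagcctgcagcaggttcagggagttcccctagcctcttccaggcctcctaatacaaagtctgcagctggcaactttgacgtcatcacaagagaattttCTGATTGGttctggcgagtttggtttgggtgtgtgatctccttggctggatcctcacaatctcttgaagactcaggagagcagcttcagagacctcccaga
H2-Eb1 promoter: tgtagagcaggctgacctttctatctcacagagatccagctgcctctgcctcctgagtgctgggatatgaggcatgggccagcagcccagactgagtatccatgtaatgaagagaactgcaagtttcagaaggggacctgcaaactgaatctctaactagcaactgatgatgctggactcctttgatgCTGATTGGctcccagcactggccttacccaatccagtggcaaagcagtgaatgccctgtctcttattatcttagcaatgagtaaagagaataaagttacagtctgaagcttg
The same letters were in 1346 of 32851 promoter windows of this length (4.1%) and in 2 of the 6 windows of class II genes. A match is a description of the letters and not evidence of binding.

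Interferon response genes, the antiviral transcripts that interferons induce, lay mostly on the other side. The median interaction of the 25 members was 0.37, the median diet difference was -0.23 in wild-type and 0.12 in POR-null mice, and 6 members lay above 0 (against 2.24% of genes) and 1 below 0 (against 2.98%) at an unadjusted p under 0.05. The 6 were Bst2 and 5 genes of the oligoadenylate synthetase and synthetase-like family, which bind double-stranded RNA. Oasl2 was at 8.99, 8.74 and 8.70 in wild-type control pools, 8.09, 7.78 and 7.80 in wild-type pools given quercetin, 8.03, 8.27 and 7.56 in POR-null control pools and 8.22, 8.21 and 7.77 in POR-null quercetin pools. The wild-type control pools exceeded the other 9, and the interaction was 1.03 ± 0.23 (limma adjusted p = 0.755). Bst2, the tetherin that holds budding virus at the membrane, was at 6.30, 6.00 and 6.38 and at 5.69, 5.89 and 5.67 in wild-type control and quercetin pools, and at 5.81, 5.95 and 5.70 and at 6.26, 6.05 and 5.97 in the POR-null ones. Neither genotype's diets overlapped and their order was opposite (interaction 0.75 ± 0.16, adjusted p = 0.755).

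Oasl1 had an interaction of 0.63 ± 0.19, Oas1a 0.62 ± 0.25, Oas3 0.51 ± 0.18 and Oas2 0.46 ± 0.14, the last 3 named beyond the rule. Probe sets of this family may share targets, so these genes are not independent. Gbp2, a guanylate binding protein induced by interferon gamma, went the other way at -0.50 ± 0.15, and Irf1 at -0.35 ± 0.21 and the immunoproteasome and peptide transport genes Psmb8, Psmb9 and Tap1 at -0.07, -0.08 and -0.07 did not share the sign of the synthetases. Usp18 (0.90 ± 0.50), Ifit1 (0.82 ± 0.57) and Rsad2 (0.76 ± 0.42) had large values with wide errors. Helz2, an interferon-induced helicase and coactivator not on the list, was at 0.57 ± 0.13 without overlap in either genotype. Pool means of the list were 0.35, -0.07 and 0.01 in wild-type control, -0.21, -0.004 and -0.04 in wild-type quercetin, 0.07, -0.03 and -0.24 in POR-null control and 0.10, 0.34 and -0.26 in POR-null quercetin mice, and the groups overlapped. Without wild-type control pool 1 the list median was 0.23.

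The interferon-stimulated response element, taken here as GAAA, any 2 bases and GAAA on either strand, was in 1131 of 32851 promoter windows (3.44%), in 11 of the 23 windows of list genes (47.8%) and in 4 of the 6 windows of list genes at an unadjusted p under 0.05, namely those of Bst2, Gbp2, Oas3 and Oas1a. It was not in the windows of Oasl2 and Oasl1, which says only that these letters are absent there, and Gbp2, whose interaction lay below 0, had it too. The promoters of Bst2 (chr8:71537423-71537722, minus strand) and Oas1a (chr5:120907476-120907775, minus strand) are shown from RefSeq GRCm38.p6, and those of Gbp2 and Oas3 are not. In each window shown, 2 overlapping matches form 1 run, in capitals. It begins 130 bases before the start site in Bst2 and 20 bases before it in Oas1a.
Bst2 promoter: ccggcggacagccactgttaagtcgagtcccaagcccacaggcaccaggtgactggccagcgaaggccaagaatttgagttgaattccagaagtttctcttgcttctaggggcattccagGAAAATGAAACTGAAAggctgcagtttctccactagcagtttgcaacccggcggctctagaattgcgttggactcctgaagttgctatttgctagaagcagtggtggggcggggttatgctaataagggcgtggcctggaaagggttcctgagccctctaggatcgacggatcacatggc
Oas1a promoter: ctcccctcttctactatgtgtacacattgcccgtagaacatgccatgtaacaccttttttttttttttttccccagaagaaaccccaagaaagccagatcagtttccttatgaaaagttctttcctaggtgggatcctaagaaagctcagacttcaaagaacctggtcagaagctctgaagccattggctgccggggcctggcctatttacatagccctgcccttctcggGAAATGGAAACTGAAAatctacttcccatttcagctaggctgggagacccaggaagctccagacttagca

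Glutathione S-transferases, which couple glutathione to electrophiles, had 8 of 20 members above 0 at an unadjusted p under 0.05 (against 2.24% of genes), 0 below, and a median interaction of 0.23. The median diet difference was -0.25 in wild-type mice and -0.01 in POR-null mice. The median POR-null minus wild-type difference was -0.18 on the control diet and 0.08 on quercetin. Group means of the centred list were 0.18 in wild-type control, -0.14 in wild-type quercetin, -0.01 in POR-null control and -0.02 in POR-null quercetin pools. Which wild-type group was the unusual one was not tested. Gstm1, of the mu class, was at 9.83, 9.68 and 9.40 in wild-type control pools, 9.33, 8.90 and 8.21 in wild-type pools given quercetin, 9.53, 8.87 and 9.16 in POR-null control pools and 9.10, 9.59 and 9.20 in POR-null quercetin pools. The wild-type diets did not overlap, the POR-null diets did, and wild-type quercetin pool 3 was the lowest of the 12 (interaction 0.93 ± 0.33, limma adjusted p = 0.956). Gstm2 had an interaction of 0.77 ± 0.21, Gstm6 0.79 ± 0.27 and Gsta3 of the alpha class 0.40 ± 0.11, the last at a low mean level of 4.43. Members of the mu class are near-identical and their probe sets may cross-hybridise, so the values of single Gstm genes are uncertain. Quercetin pools lay wholly below control pools in wild-type mice for 8 of the 20 members, against 4.78% of all genes, and in POR-null mice for 1, against 4.83%.

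The pi class Gstp1 (0.05), the microsomal Mgst1 (-0.03), Mgst2 (0.03) and Mgst3 (0.01) and Gsto1 (0.12) lay near 0, at mean levels of 9.58 to 11.74. The antioxidant response element core TGACNNNGC was in 12.4% of all promoter windows and in 15.4% of the 26 windows of transferase genes. Among carboxylesterases and epoxide hydrolases 2 of 10 lay above 0 at an unadjusted p under 0.05 (against 2.24% of genes), Ces1f at 0.61 ± 0.22 and Ces2g at 0.83 ± 0.39, with a list median of 0.19 that was 0.048 without wild-type quercetin pool 3 and -0.31 with the segment score, described below, in the model (0 above 0 and 1 below). Of 21 genes of the Cyp2 and Cyp3 families and their receptors, 0 had an unadjusted p under 0.05 (against 5.22% of genes). Their median was 0.22, and the median diet difference was -0.21 in wild-type mice and -0.05 in POR-null mice. Cyp3a11, the abundant intestinal drug-metabolising P450, was at 12.56, 12.53 and 12.30 in wild-type control pools and between 11.35 and 12.48 in wild-type quercetin pools, and between 12.30 and 12.55 in all 6 POR-null pools. Its interaction was 0.57 ± 0.27 (adjusted p = 0.956), and wild-type quercetin pools 2 and 3 were the ones apart from the rest. The receptors Nr1i2 and Nr1i3 were at -0.16 and -0.20.

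Genes of flavonoid conjugation, which add glucuronic acid, sulphate or methyl groups to quercetin, had a median of -0.01. Of their 11 members, 0 had an unadjusted p under 0.05 (against 5.22% of genes). NRF2 and glutathione genes had a median of 0.00 with 0 of 15. The efflux pumps had a median of 0.045 with 1 of 8 below 0 (against 2.98% of genes). The values for these lists were thus near those of all genes.

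Some markers of position along the intestine also differed between groups of pools. Of 13 distal segment markers, 6 lay below 0 at an unadjusted p under 0.05 (against 2.98% of genes) and 1 above (against 2.24%), with a median diet difference of 0.32 in wild-type and -0.11 in POR-null mice. Fabp6, the ileal bile acid binding protein, had the largest interaction of any gene, -4.44 ± 1.56 (95% interval -7.77 to -1.11, limma adjusted p = 0.956). Its level was 5.83, 6.32 and 10.72 in wild-type control pools, 8.96, 11.25 and 12.18 in wild-type pools given quercetin, 8.73, 8.30 and 10.33 in POR-null control pools and 6.69, 7.30 and 9.57 in POR-null quercetin pools. Diets overlapped in both genotypes, and pool 3 was the highest of each group, though nothing in the labels pairs the pools. The bile acid exporter subunit Slc51a was at -0.51 ± 0.17, the peptide hormone Guca2a at -0.36 ± 0.13, and Amn, the partner of cubilin, at -0.34 ± 0.14. The marker above 0 was the mucin Muc3 at 0.41 ± 0.18. Guca2a, Amn and Muc3 were named after their values were seen. Fgf15, the bile acid induced hormone, and the bile acid importer Slc10a2 had interactions of -0.54 ± 0.27 and -0.61 ± 0.32, the latter at a mean level of 3.61. Both moved with single wild-type quercetin pools, to -0.35 and -0.28 without pool 3 and -0.85 and -0.91 without pool 1. With the segment score described next in the model they were -0.009 and 0.20. Both genes are members of that score, so their values in that model are not independent of it.

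The 14 proximal segment markers had a median of 0.09, and Ada was the 1 with an unadjusted p under 0.05 (against 5.22% of genes). A segment score, the mean of distal less the mean of proximal markers with each gene centred, was -0.55, -0.44 and 0.07 in wild-type control pools, -0.02, 0.38 and 0.63 in wild-type pools given quercetin, 0.13, 0.02 and 0.04 in POR-null control pools and -0.20, -0.17 and 0.09 in POR-null quercetin pools. Wild-type diets overlapped only through control pool 3 and quercetin pool 1, and the group means were -0.30 and 0.33 in wild-type mice and 0.07 and -0.09 in POR-null mice. The score holds genes named above, Osr2, Cubn, Fabp6, Slc51a, Fgf15, Slc10a2 and Ada among them. It is a plain mean over genes, so Fabp6, at -4.44 against a distal median of -0.37, weighs more in it than a typical member.

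With the segment score of each pool as a term of the model, the lists fared differently. In that model 2.57% of all genes lay above 0 at an unadjusted p under 0.05 and 3.1% below. The lymphocyte median was -0.25 with 6 members below 0 at an unadjusted p under 0.05, the interferon median 0.12 with 4 above and 1 below, and the class II median -0.22 with 0. The transferase median was -0.03 with 2 above 0, and the median of the P450 list was -0.11 with 3 below 0. Gstm6, Ces2g and Cyp3a11 changed sign, to -0.05, -0.38 and -0.21, Gstm1 was at 0.15 and the median of the fat absorption list at -0.09. The 15 leading genes on each side all kept their sign. Segment position and diet cannot be told apart with this score, which is itself made from transcripts of the same pools.

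**Figure D5:**
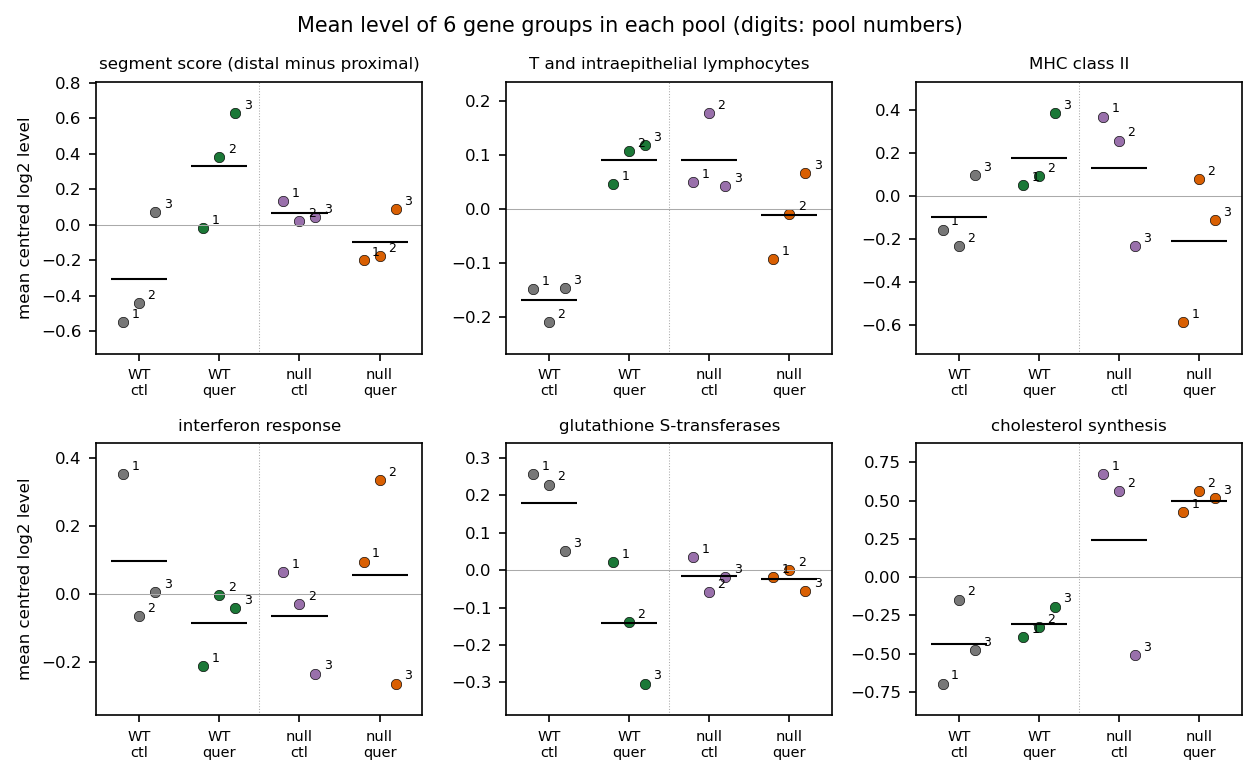
Mean log2 level of 5 gene lists and the segment score in each of the 12 pools, with each gene centred over all pools; digits are pool numbers, bars are group means and the groups are as in the plot of single genes. The lymphocyte list has its 3 lowest pools in the wild-type control group, the transferase list and the segment score shift between diets in wild-type mice with little shift in POR-null mice, and cholesterol synthesis has POR-null control pool 3 at -0.51 against 0.56 or more in the other 2.

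Enteroendocrine hormone genes lay on both sides of 0. Of 16 members 2 lay below 0 at an unadjusted p under 0.05 (against 2.98% of genes) and 1 above (against 2.24%), with a median of 0.02. Pyy and Nts, hormones of distal endocrine cells, were at -0.76 ± 0.30 and -0.63 ± 0.21, and Cck, a hormone of proximal ones, was at 0.69 ± 0.23 at a mean level of 5.31, below the array medians. With the segment score in the model, described above, Cck was at 0.09, Nts at -0.15 and Pyy at 0.14. The pan-endocrine marker Chga was at -0.31 ± 0.17.

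Brush border enzymes had 2 of 11 below 0 at an unadjusted p under 0.05 (against 2.98% of genes). Mep1a, the metalloprotease meprin alpha, was at 10.04, 10.51 and 10.59 in wild-type control pools, 10.83, 11.02 and 11.01 in wild-type quercetin pools and between 10.93 and 11.19 in all 6 POR-null pools, an interaction of -0.62 ± 0.17 (limma adjusted p = 0.956) that was -0.29 with the segment score in the model. Vil1, the villin of the microvillus core, was at -0.23 ± 0.10 with SDs of at most 0.06 in any group, and trehalase Treh was at 0.53 ± 0.26. Fabp2, the cytosolic fatty acid binding protein of enterocytes, was at -0.25 ± 0.10 with opposite, non-overlapping orders of the diets, 13.48 to 13.57 and 13.64 to 13.72 in wild-type control and quercetin pools and 13.61 to 13.69 and 13.54 to 13.56 in POR-null ones. It was the 1 of 17 fat absorption genes with an unadjusted p under 0.05 (against 5.22% of genes), in a list whose median was 0.15.

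Lipid oxidation and peroxisomal genes had members on both sides of 0. Fatty acid oxidation had a median of 0.00 over 19 members, with Acadl, the long-chain acyl-CoA dehydrogenase, at 0.59 ± 0.22 on 1 probe set and 0.09 on its other, and the short-chain enzyme Acads at -0.28 ± 0.11. PPAR-alpha targets had 2 of 17 members above 0 (against 2.24% of genes) and 1 below (against 2.98%) at an unadjusted p under 0.05, and a median of 0.11 that turned to -0.06 with the segment score in the model. Acaa1b, a peroxisomal thiolase, was at 0.85 ± 0.38 (0.51 without wild-type quercetin pool 3 and 1.28 without pool 1), Acot1 at 0.28 ± 0.12 and Vnn1, a pantetheinase, at -0.50 ± 0.17. Fatty acid synthesis had 2 of 16 above 0 at an unadjusted p under 0.05 (against 2.24% of genes). These were the acyltransferase Gpam at 0.44 ± 0.19 and the glucose-sensing factor Mlxipl at 0.30 ± 0.14. Over the alternatives other than leaving out a pool, Gpam ran from 0.245 to 0.65.

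Cholesterol synthesis had a median of 0.06 over 17 members with 1 below 0 at an unadjusted p under 0.05 (against 2.98% of genes). The median turned to -0.24 when POR-null control pool 3 was left out. Hmgcs1, the HMG-CoA synthase at the head of the pathway, was at 9.29 in POR-null control pool 3, against 10.80 or more in the other POR-null control pools, 11.03 to 11.16 in POR-null quercetin pools and 8.86 to 9.89 in the 6 wild-type pools. Pool 3 of the POR-null control group lay in the wild-type range, and the interaction was 0.42 ± 0.46 with all pools and -0.12 without that pool.

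Cytosolic ribosomal protein genes had 3 of 19 below 0 at an unadjusted p under 0.05 (against 2.98% of genes), Rpl27a at -0.43 ± 0.20 (0.03 on its other probe set), Rpl10a at -0.32 ± 0.14 and Rps15 at -0.31 ± 0.14, and a median of -0.15. Their median diet difference was above 0 in both genotypes, 0.26 in wild-type and 0.09 in POR-null mice, so both genotypes had the same sign for the list as a whole. With the segment score in the model the list median turned to 0.10 with 1 member below 0, and with 1 pool left out it ran from -0.23 (without wild-type quercetin pool 1) to -0.065 (without wild-type control pool 2), with 0 to 6 members below 0. Heat shock genes had 2 of 16 above 0 (against 2.24%), the co-chaperones Dnaja1 at 0.44 ± 0.17 and Bag3 at 0.28 ± 0.12, and a median of 0.20. The list median was 0.33 with the segment score in the model and 0.09 without wild-type control pool 3.

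Among pancreatic transcripts found in the jejunal samples, Clps (0.58 ± 0.15) and the lipase Pnliprp2 (0.67 ± 0.31) lay above 0 and the carboxypeptidase Cpa1 (-0.38 ± 0.11) below 0, with a median of -0.04 over 13 members, so these genes did not share a sign. Medians of other cell type lists were 0.03 for both Paneth and goblet cells, 0.00 for tuft cells, 0.125 for stem cells and Wnt targets, 0.08 for smooth muscle, 0.13 for fibroblasts and matrix, -0.13 for endothelium and -0.19 for nerve and glia. Each had at most 1 member at an unadjusted p under 0.05 (against 5.22% of genes). The smooth muscle value was not stable. Its list mean stood at 0.69 in wild-type control pool 3 and 0.48 in POR-null control pool 1 with the remaining 10 between -0.25 and 0.16. The list median ran from -0.175 without wild-type control pool 3 to 0.31 without wild-type control pool 1. With the segment score in the model it was 0.79. There 7 of 13 members lay above 0 at an unadjusted p under 0.05, against 2.57% of all genes in that model. Cell cycle genes had a median of -0.01 with 0 of 23, and their median diet difference was alike in sign in both genotypes, at 0.14 in wild-type and 0.11 in POR-null mice.

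Genes were also ordered by the size of the interaction. An absolute interaction over 1, a threshold set after the values were seen, was reached by 19 genes (0.153%), 12 below 0 and 7 above. Of these, 17 had an unadjusted p under 0.05, against 5.22% of all genes, which follows in part from choosing them on the interaction. Below 0 the genes were led after Fabp6 by Saa1, an acute phase protein, at -2.15 ± 1.01. There wild-type quercetin pool 3 at 9.21 stood apart from the other 11 pools (4.97 to 7.61). Suox, sulphite oxidase, followed at -1.58 ± 0.52, with wild-type control pools at 6.64, 7.24 and 7.92, wild-type quercetin pools at 7.69, 8.34 and 9.51 and POR-null pools between 7.36 and 8.04. Above 0, the secreted lectin-like protein Reg1 was at 1.75 ± 0.68, the Golgi GTPase Rab30 at 1.22 ± 0.48, the immunoglobulin genes Igha and Jchain at 1.16 ± 0.49 and 1.08 ± 0.53 and Ifrd1 at 1.02 ± 0.42. Igha and Jchain, products of IgA plasma cells, varied by over 1 log2 unit between pools of the wild-type control group, and limma's adjusted p was 0.956 for both.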

How the data were processed

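Values were taken as deposited, on the log2 scale, from the authors' table of 12 Affymetrix mouse 430A arrays. Per the submitters' processing notes, MAS5 and RMA were used, with no version or role stated, so it is unknown here which made the deposited log2 values. No detection calls were used. Groups and pool numbers came from the sample titles. Of 22690 probe sets, 64 array controls were left out; 20380 of the 22626 tested had 1 gene symbol, 691 several and 1555 none in the platform annotation, and 20351 matched a RefSeq gene. A group-mean model was fitted with limma 3.58.1 in R 4.3.3 (8 residual degrees of freedom), and p-values were adjusted by Benjamini-Hochberg over all 22626 probe sets. No further normalisation or filter was applied, and the fit was tested on simulated data. For counts over genes, each gene was represented by its probe set of highest mean, leaving out probe sets of the _s_ and _x_ types where the gene had another.

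Genes were named by rule. The 15 of smallest p on each side of 0 were taken, each by its probe set of smallest p, passing over gene models without an established symbol. Up to 4 members of each list with at least 2 members at an unadjusted p under 0.05 were added, and 7 genes were always looked up. Members and lists were chosen with earlier results of these data known. Pools were called apart when all 3 of one diet lay above all 3 of the other. Alternatives covered quantile normalisation, centring on array medians, leaving out dim probe sets, the variance model, array weights, the pool number as a block, scores for gut segment and smooth muscle as covariates, the probe sets per gene and each pool left out in turn. Promoter windows came from RefSeq (GRCm38.p6).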

Additional observations from a re-analysis of the deposited data

How the results depend on the processing

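The number of probe sets past an adjusted p of 0.05 stayed at 0 under quantile normalisation, median centring, the filter on dim probe sets, the trended and robust variance, array weights, the smooth muscle score and both ways of taking 1 value per gene. It was 1 with the segment score as a covariate (Sdc4, -3.41, limma adjusted p = 0.0189) and ranged from 0 to 2 when 1 pool was left out, the 2 being Sdc4 and Ada without wild-type control pool 1. The 1141 probe sets at an unadjusted p under 0.05 became 592 under the filter on dim probe sets, 658 with 1 probe set per gene and 644 with the mean of all probe sets of a gene, which tested 11310, 12393 and 12393 features. With 1 pool left out the number ranged from 886 (without wild-type quercetin pool 3) to 1548 (without wild-type quercetin pool 1).

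Nothing in the labels pairs pools by number, and pairing was looked at over all probe sets together. Deviations of the 18 same-numbered pairs of pools from their group means correlated at -0.139 to 0.185, and 2 of 18 exceeded 0.1. With the number as a replicate block there were 0 adjusted calls and 1119 probe sets at an unadjusted p under 0.05.

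Of 1895 values of named probe sets under alternatives, 23 changed sign. With the segment score as a covariate these were Fabp6 (0.97), Pyy (0.14), Slc10a2 (0.20), Gstm6 (-0.047), Acaa1b (-0.056), Ces2g (-0.38), Cyp3a11 (-0.21), Treh (-0.14), Aadac (-0.16), Ephx2 (-0.25), Xdh (-0.14), Nqo1 (-0.24), Slc25a20 (0.023) and Rpl19 (0.048). Fabp6 and Slc10a2 are themselves members of that score. With the 1 probe set that represents each gene in counts, the genes that changed sign were Sdc4 (0.24), Smr2 (0.037), Nsmf (-0.04) and Acvr1 (-0.05). Nqo1, at 0.01, turned to -0.09 without wild-type control pool 1, -0.02 without wild-type quercetin pool 3, -0.10 without POR-null control pool 3 and -0.11 without POR-null quercetin pool 2, and Hmgcs1 to -0.12 without POR-null control pool 3 (up to 0.74 without other single pools). The cause was not tested for any of them. List medians with 1 pool left out ranged from -1.02 to -0.53 for MHC class II, -0.37 to -0.24 for lymphocytes, -0.56 to -0.33 for distal markers, 0.23 to 0.46 for interferon genes and 0.17 to 0.33 for transferases. No member of the class II list had an unadjusted p under 0.05 with the trended and robust variance.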
